A study of Asparagus officinalis with 3 samples.

Results

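The miR408 and miR528 families of garden asparagus (Asparagus officinalis) were examined in the small RNA libraries of female and male plants. Members were taken by the family name in the deposited miRNA table. The miR408 family holds 3 of the 194 listed sequences and the miR528 family holds 1. The deposited table of predicted targets adds 11 of its 463 miRNA and unigene pairs, 9 for miR408 and 2 for miR528. A unigene is a transcript sequence assembled from expressed sequence tags and transcriptome reads. The female library came from female plants and the male library from male plants, all 3 years old, of the cultivar Grand and grown in a greenhouse, with no treatment given in the labels. RNA of leaves, roots, stems and flowers was mixed in equal amounts from several pooled plants, and 1 library was made for each sex, so the spread between plants of a sex is unknown. A degradome library, a library of cut mRNA ends, was made from a pool of both sexes and was not analysed here.

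MicroRNAs guide an ARGONAUTE protein to mRNAs with matching sequence, which are then cut or kept from being translated. In Arabidopsis, miR408 acts on mRNAs of copper proteins, among them plantacyanin and laccases, and it rises when copper is scarce, under control of the transcription factor SPL7. Plantacyanins are small blue copper proteins of the cell surface, and laccases are copper oxidases that act in lignin formation. The miR528 family is known from monocots, and in rice it cuts the mRNA of an L-ascorbate oxidase, another copper enzyme.

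The sequences of the 4 members are shown because the target sites below are read from them. They run 5′ to 3′, with bases 2 to 8 (the seed) in capitals.
aof-miR408a: uGCACUGCcucuucccuggc
aof-miR408b: uGCACUGCcucuucccuggcu
aof-miR408c: uGCACUGCcucuucccuggcuu
aof-miR528: uGGAAGGGgcaugcagaggag
The 3 miR408 sequences begin at the same base and differ only in length, with 20, 21 and 22 nt. No listed miRNA outside the miR408 family has its seed, and none outside the miR528 family has that of aof-miR528. All 4 begin with U, as do 74.7% of the 154 conserved sequences. G and C make up 59.1 to 65.0% of the members, against a median of 57.1% over the conserved sequences.

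The miR408 family was lower in the female library than in the male library in all 3 of its sequences. Aof-miR528 was also lower in the female library, by a smaller factor. Values are in the authors' TPM, reads of each small RNA scaled to a common library size and not divided by length. Aof-miR408a had 7.09 TPM in female plants against 23.7 TPM in male plants. Aof-miR408b, the most abundant of the family, had 32.2 TPM in female plants against 171 TPM in male plants. Aof-miR408c had 13.5 TPM in female plants against 59.6 TPM in male plants. The 3 forms kept the same order of level in both libraries, with the 21-nt form first and the 20-nt form last. Summed, the miR408 family had 52.8 TPM in female plants against 254 TPM in male plants. In bulk RNA, fewer cells of a type and less RNA per cell cannot be told apart, and the same holds for the organs mixed here.

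Low values in the table rise in even steps, of 0.229 TPM for female plants and 0.157 TPM for male plants. If 1 step is 1 read, the female values are per 4373625 reads and the male values per 6374800. For both sexes these totals lie above the final clean reads and below the clean reads stated in the study, so which reads they count is not known. Aof-miR408a then stands for 31 reads in female plants against 151 in male plants, aof-miR408b for 141 female and 1090 male reads, and aof-miR408c for 59 female and 380 male reads. Aof-miR528 stands for 631 reads in female plants against 1332 in male plants. Intervals in the text are exact 95% intervals from these reads. They cover counting error only, not the spread between plants or library preparations, and amplified reads are not independent molecules. No p-value was computed, since each sex is 1 library.

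**Figure D1:**
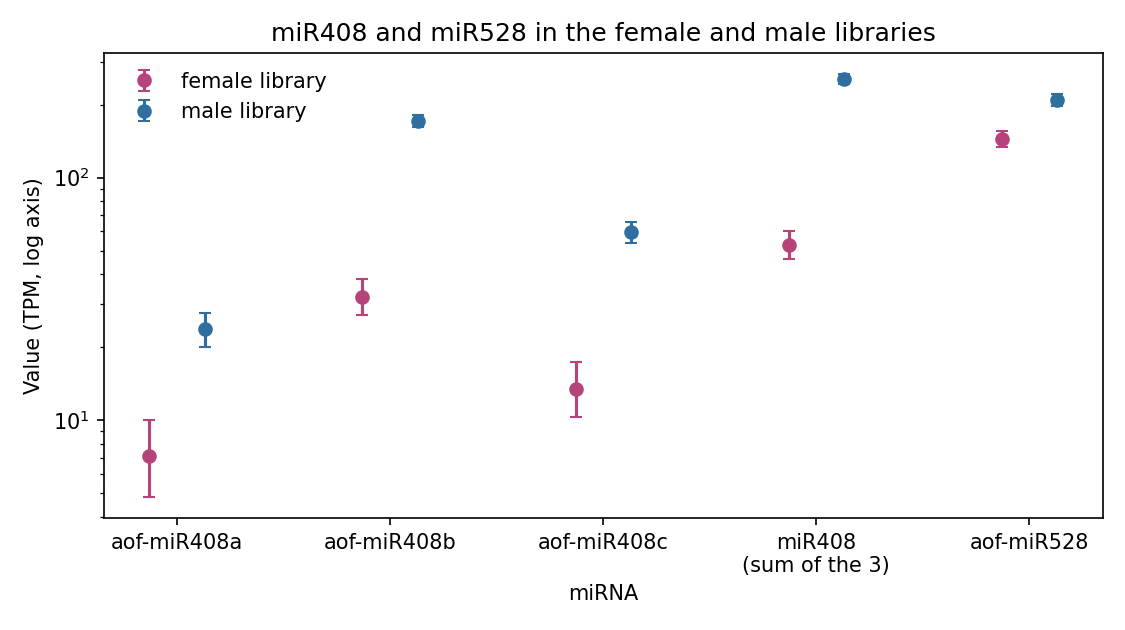
Values of the miR408 and miR528 sequences in TPM on a log axis, with the female library to the left of the male library, and bars for the exact 95% counting interval. The female value lies below the male value for all 3 miR408 sequences. For aof-miR528, at 144 TPM (female) and 209 TPM (male), the female value lies below by a smaller factor.

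On the log2 scale, the summed miR408 family had a ratio (female over male) of -2.27 (counting interval -2.47 to -2.07), which is 4.81-fold higher in the male library. The single forms had ratios of -1.74 (-2.35 to -1.18) for aof-miR408a, -2.41 (-2.67 to -2.15) for aof-miR408b and -2.14 (-2.56 to -1.74) for aof-miR408c. These intervals overlap, and the difference in ratio between the 3 lengths was not itself tested.

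Aof-miR528 had 144 TPM in the female library (133 to 156 TPM) and 209 TPM in the male library (198 to 220 TPM). Its log2 ratio was -0.53 (-0.67 to -0.40), or 1.45-fold higher in the male library. The counting interval of this ratio does not overlap with that of the summed miR408 family. Over all listed miRNAs the median log2 ratio was 0.18, so relative to the median miRNA the ratio was -2.44 for miR408 and -0.71 for aof-miR528.

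The order of the families differed between the libraries. In the female library aof-miR528 was 2.73 times the summed miR408 family, and in the male library it was 0.822 times that family. By summed value, miR408 was at place 19 of 26 conserved families in the female library and at place 9 in the male library. The miR528 family was at place 16 in the female library and at place 11 in the male library. Among single sequences, aof-miR408b was at place 51 of 194 in the female library and at place 20 in the male library, while aof-miR528 was at place 25 in the female library and at place 17 in the male library.

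A difference of more than 2-fold, the size used in the study's methods, was reached by 3 of the 4 members, all of miR408 and all higher in the male library. Over all 194 listed miRNAs, 12.9% were over 2-fold higher in the male library. Among the 49 miRNAs whose higher value lay between 23.7 and 209 TPM, the range of the members, the share was 14.3%, or 7 sequences, of which 3 were miR408. The others were aof-miR159b, aof-miR166e-7, aof-miR168a-2 and aof-miR396a-5p. Both shares count the male direction only, which is that of the members. Another 10 of the 49 passed 2-fold in the opposite direction, with the female value above the male value. Summed by family, miR408 was 1 of 2 families over 2-fold higher in the male library, beside miR1425 with 1.37 TPM in female plants against 6.27 TPM in male plants. The sums of miR160, miR171, miR390, miR393, miR479 and miR5179 passed 2-fold in the female direction, with log2 ratios from 1.04 to 1.99. All 4 members were higher in the male library, as were 42.3% of all listed miRNAs.

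**Figure D2:**
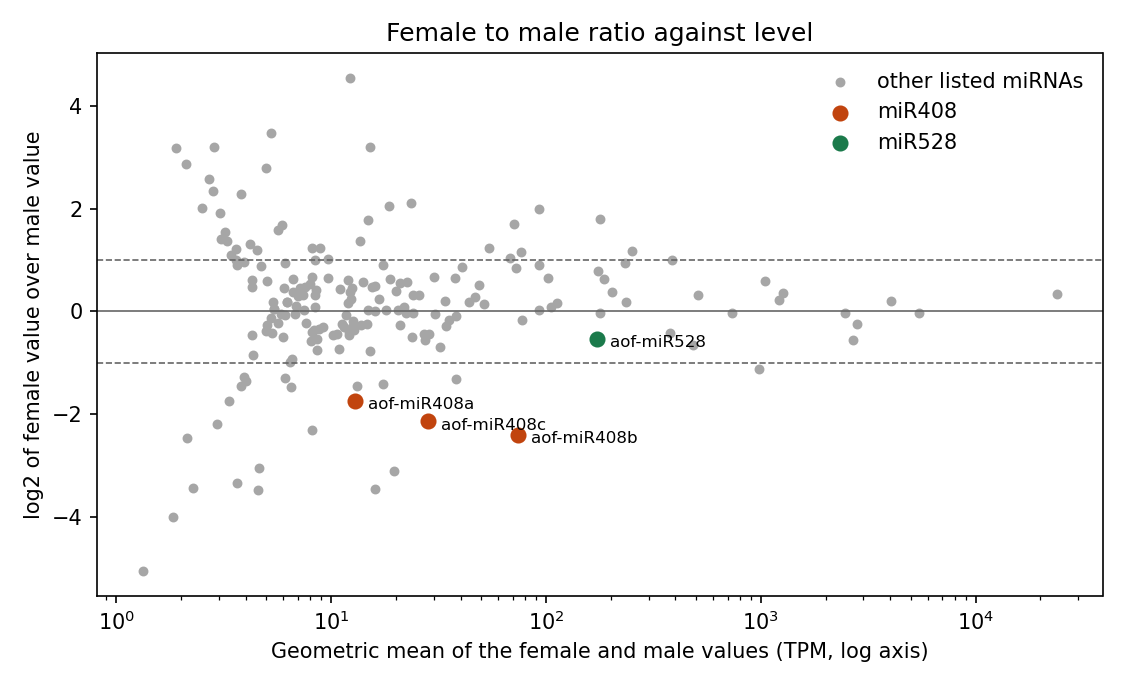
Log2 of the female over the male value against the geometric mean of the values (TPM, log axis) for each listed miRNA above 0 in both libraries, with dashed lines at 2-fold. The 3 miR408 sequences lie between -2.41 and -1.74, and aof-miR528 lies at -0.53, inside the dashed lines.

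Outside the families, the miRNA with at least 10 TPM in one library whose ratio was nearest to the summed miR408 family was aof-miR396f, with 3.66 TPM in female plants against 18.2 TPM in male plants (log2 ratio -2.31). The next were aof-miR166i-6 (-3.06) and aof-miR396b-4 (-1.48), each about 0.79 away on the log2 scale. The nearest to aof-miR528 were aof-miR166a-4 (-0.55), aof-miRn19 (-0.55) and aof-miR396b-2 (-0.56). Likeness was measured here as the difference in log2 ratio over 2 libraries among 119 miRNAs, so it describes a single comparison.

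The 21-nt form took most of the miR408 reads in both libraries. It held 61.0% of them in the female library (54.4 to 67.4%) and 67.2% in the male library (64.9 to 69.5%). The 22-nt form held 25.5% in the female library (20.05 to 31.7%) and 23.4% in the male library (21.4 to 25.6%). The 20-nt form held 13.4% in the female library (9.30 to 18.5%) and 9.32% in the male library (7.94 to 10.8%). The intervals of the libraries overlap for each of the 3 lengths, and the differences in share were not themselves tested. Since sequences outside 20 to 24 nt, and those under 5 TPM in both libraries, were left out of the listing, shorter or rarer ends of miR408 would not be in these sums.

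Sequences that begin with the whole of a shorter listed sequence of their family were grouped with it, in 22 sets over 12 families. The miR408 set differs in length only, but some other sets also hold sequences of equal length that differ at the 3′ end. Within the miR408 set the log2 ratios spanned 0.67. In the other 21 sets the span ran from 0.013 to 3.68, with a median of 0.84, and 9 of them had a smaller span than miR408. The span of 3.68 lay between aof-miR159a (0.22) and aof-miR159b (-3.46), which have the same length. In 2 of the other sets every sequence was higher in the male library, and in 0 of them was every sequence over 2-fold higher there. In the opposite direction, the sets with aof-miR164a, aof-miR166a-2 and aof-miR393a had lowest log2 ratios of 1.10, 1.24 and 1.22. All sequences of these sets thus passed 2-fold, with the female value above the male value. Only 7 of the other sets held 3 or more sequences, as the miR408 set does. The sets are a description of these libraries, since sequences of a set can come from the same precursor.

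**Figure D3:**
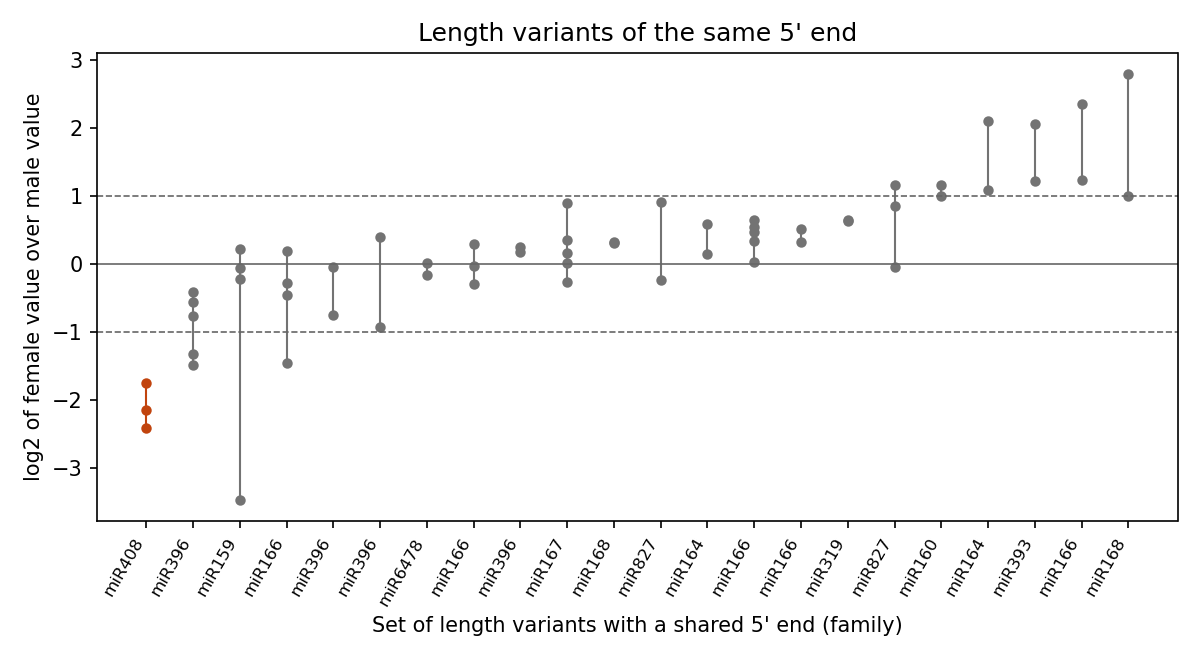
Log2 of the female over the male value for each sequence of the 22 sets with a shared 5′ end, ordered by their mean. A line spans the range of each set, and dashed lines stand at 2-fold. The 3 miR408 sequences, at the left, lie between -2.41 and -1.74, all under the lower dashed line.

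No hairpin precursor was listed for aof-miR408c. Those for aof-miR408a, aof-miR408b and aof-miR528 came from the rice genome, which the study searched because asparagus genome sequence was limited. They are printed to show which arm of the hairpin each mature sequence lies on, with the mature sequence in capitals.
rice hairpin matched by aof-miR408b: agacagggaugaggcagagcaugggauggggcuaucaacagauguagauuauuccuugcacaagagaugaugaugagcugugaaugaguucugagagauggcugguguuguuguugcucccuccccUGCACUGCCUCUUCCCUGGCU
rice hairpin matched by aof-miR528: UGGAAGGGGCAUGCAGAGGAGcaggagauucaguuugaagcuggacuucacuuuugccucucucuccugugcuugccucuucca
Aof-miR408b lies at bases 127 to 147 of 147, at the end of the 3′ arm, and aof-miR528 lies at bases 1 to 21 of 84, at the start of the 5′ arm. Folded with RNAfold, the miR408 hairpin had an energy of -60.3 kcal/mol and the miR528 hairpin an energy of -43.9 kcal/mol. In these folds 16 of the 21 bases of aof-miR408b and 19 of the 21 bases of aof-miR528 were paired. As energies grow with length and with G and C, the folding index MFEI, which corrects the energy for both, was also computed, and it was 0.804 for the miR408 hairpin and 0.998 for the miR528 hairpin. The miR408 hairpin was also listed for aof-miR408a, without the outermost base at each end.

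The target table lists 4 unigenes for miR408 and 2 for miR528, and none of these 6 is listed for another family. Targets called from the degradome form a separate list of the study, which is not limited to these 6 unigenes and was not used here. A description from the closest database protein is given for 3 of the 6, and for 56.7% of the 194 unigenes in the table. Each pair has a score, in which a mismatch adds 1, a G:U wobble 0.5 and an unpaired base 2. This rule was worked out from the alignments and gave the listed score in all 463 pairs. Scores in the table run from 0.5 to 3, and a low score stands for closer pairing.

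The closest sites of miR408 are those of UN31105 and UN04466, which have no description. They are printed with the site of UN02638, the unigene of the miR408 list that has one. Sites run 5′ to 3′ on the strand that pairs with the miRNA, and capitals mark bases that are mismatched, in a wobble or left unpaired.
UN31105, site of aof-miR408c: aagccagggaagaggcaguAca
UN04466, site of aof-miR408c: aagccagggaagaggcaguAca
UN02638, site of aof-miR408b: GgcUaAgggaagaggcagugca
The sites of UN31105 and UN04466 are identical over 22 bases, at positions 212 to 233 of UN31105 and 216 to 237 of UN04466. All 3 miR408 sequences paired with both unigenes at a score of 1, with a single mismatch at base 3 counted from the 5′ end of the miRNA. Thus 6 of the 9 miR408 pairs had a score of 1, and a score of 1 or less was listed for 23.5% of all pairs. As these 6 pairs repeat the same site sequence with 3 lengths of the same miRNA, they are not independent, and the shares cannot be compared.

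UN02638 is described as a chemocyanin precursor by its closest protein from maize. Chemocyanin is a plantacyanin, first known from the lily stigma, where it guides pollen tubes. Its site was listed for aof-miR408a with a score of 2.5 and for aof-miR408b with a score of 3. Bases 1 to 16 of the miRNA were all paired, followed by an extra base in the unigene and a wobble at base 18, and the longer form added a wobble at base 21. No pair of aof-miR408c with UN02638 is listed. The site lies on the minus strand of the unigene as assembled, at positions 498 to 519, as do 41.3% of all listed pairs. Whether the unigene is assembled in the direction of its mRNA was not checked, so the site may not lie in the mRNA. The fourth unigene, UN22566, has no description and was listed for aof-miR408a alone, with a score of 3 and mismatches at bases 9 and 17. The number of listed pairs thus ran from 4 for the 20-nt form to 3 for the 21-nt form and 2 for the 22-nt form. Added bases cannot lower a score, and no score above 3 is listed. A longer form can therefore only keep or lose pairs, so this order says nothing about the range of targets.

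Both sites of aof-miR528 had a score of 3, the highest in the table, and 2 of the other 22 conserved families with listed pairs had no pair under 3. They are printed in the same way, since neither belongs to a copper protein by its description.
UN19848, site of aof-miR528: cuccuugcaugcccAuucca
UN14967, site of aof-miR528: cuccucuCcaugccUcuuGUa
UN19848 is described as an F-box domain containing protein by its closest protein from maize. F-box proteins choose other proteins for breakdown. Its site, on the minus strand at positions 161 to 180, left base 16 of aof-miR528 unpaired and had a mismatch at base 6. The direction of this unigene relative to its mRNA was not checked either. UN14967 is described as a putative brassinosteroid receptor kinase with leucine-rich repeats by a rice protein. Its site at positions 272 to 292 had mismatches at bases 3 and 14 and wobbles at bases 2 and 7, so that 4 of the 7 seed bases had a Watson-Crick partner.

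In all 11 pairs bases 10 and 11 of the miRNA, between which plant miRNAs guide the cut, were paired, as in 92.2% of all listed pairs. The table holds alignments only, and none of these sites was tested here for cleavage.

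**Figure D4:**
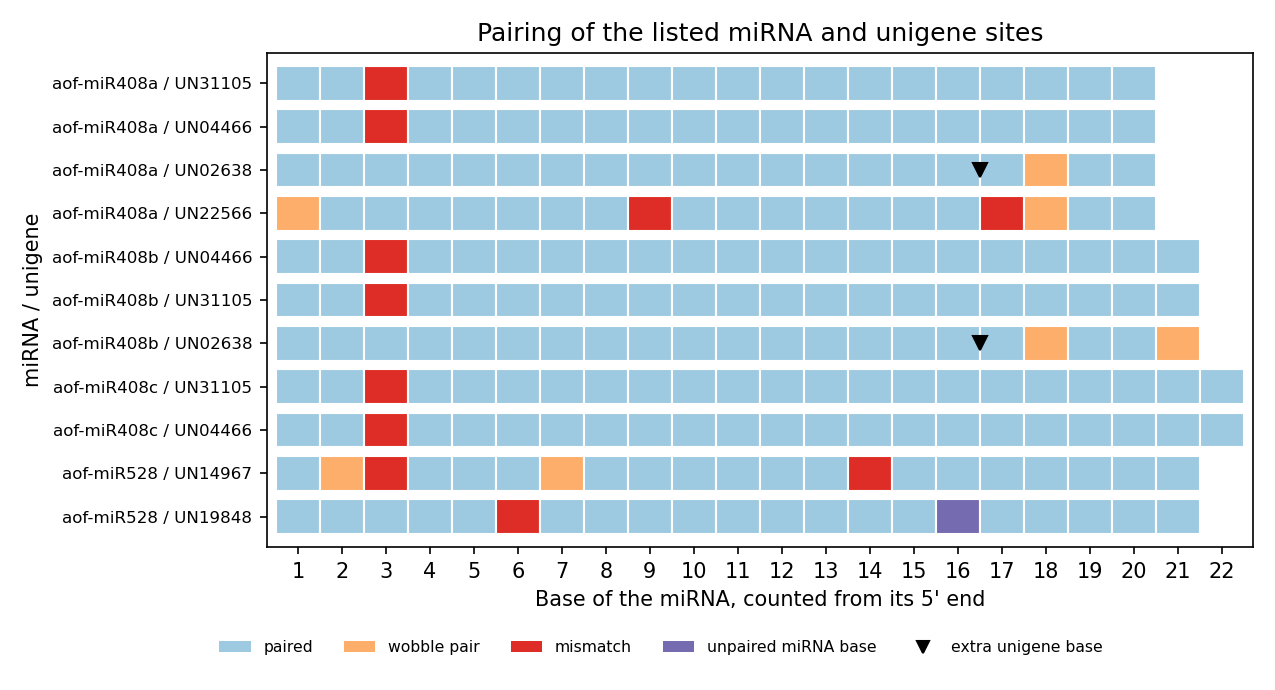
Pairing of each base of the miRNA, counted from its 5′ end, in the 11 listed pairs of miR408 and miR528. The mismatch at base 3 recurs in the 6 pairs with UN31105 and UN04466, and bases 1 to 16 are paired without a break in the pairs with UN02638.

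A list of 18 words for copper proteins (plastocyanin, plantacyanin, laccase, ascorbate oxidase and the like) matched 0 of the 6 target unigenes in the deposited table. Only 3 of these have a description, so UN31105, UN04466 and UN22566 could not match. The list did not hold chemocyanin. With that word added after the table had been read, 1 of the 6 matched, UN02638. Among the 188 unigenes listed for other miRNAs, not all of which have a description, the list matched 1, UN09170. It is an iron-sulfur subunit of the cytochrome b6-f complex, whose long name mentions plastocyanin, and is itself no copper protein. Of 5 plant families picked for known copper-protein targets (miR397, miR398, miR408, miR528 and miR857), miR408 and miR528 are among the 26 listed conserved families. The miR397, miR398 and miR857 families are not listed. Since sequences under 5 TPM in both libraries were left out, their absence from the list does not show absence from the plants. The miR827 family, known for its part in phosphate supply, had 663 TPM in female plants against 413 TPM in male plants (log2 ratio 0.68). Of its 5 sequences, 1 was over 2-fold higher in female plants and 0 in male plants.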

How the data were processed

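The deposited expression values are RPM, called TPM by the authors, who cleaned the reads, took out structural RNAs and scaled the counts to library size. Listed sequences have 20 to 24 nt and reach 5 TPM in at least one library. Conserved sequences were named by similarity to known miRNAs, and candidates without a family (aof-miRn) came from hairpins predicted on unigenes. The score deposited by the authors belongs to an alignment of a miRNA and a unigene, and while the study names psRNATarget for predictions and CleaveLand for the degradome, the table itself names no program.

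Ratios were taken as female over male without a pseudocount. The step between low values was searched among library totals from 2000000 to 9000000 in steps of 25, over values of at most 60 TPM and within 0.0051 TPM, and 99.4% of these low values were whole multiples in each library. As 1 library stands for each sex, no test was run. Intervals are exact 95% ones (Poisson for values, Clopper-Pearson for shares and ratios). The precursor sequences came from a supplementary table of the study, of which only the sequences were used. They were folded with RNAfold 2.7.2.

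All members were named, with all their target unigenes, the 3 miRNAs with at least 10 TPM nearest in log2 ratio to each family, and miRNAs sharing a seed. The members and lists were chosen with earlier results of these data known. Alternatives were pseudocounts of 1 and 5 TPM, rescaling, a 3-fold threshold, a minimum of 10 TPM, summing of end variants, and other score limits and words. The scripts were tested on simulated data and used Python 3.11.15, numpy 2.4.6, scipy 1.17.1 and matplotlib 3.10.9.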

Additional observations from a re-analysis of the deposited data

How the results depend on the processing

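The direction of the ratio stayed the same for both families and all 3 miR408 sequences under every alternative run. Adding the same pseudocount to both values cannot reverse a direction. Each rescaling moved the ratios further towards the male library, so these alternatives put the direction to little test. The log2 ratio of the miR408 family ran from -2.44 to -2.16 over 7 alternatives, and that of aof-miR528 from -0.71 to -0.52 over 5. It left its counting interval only for aof-miR528, at -0.71 when the values were rescaled by the median ratio and at -0.69 when the libraries were brought to the same sum, and both follow from the rescaling itself. The 3 members over 2-fold apart were also over 3-fold apart. With end variants summed the count was 1, since the miR408 sequences then form a single one. Of all listed miRNAs, 25 were over 2-fold higher in the male library, against 16 at 3-fold and 15 among those that reach 10 TPM in either library. The count of copper protein unigenes was 0 under the other keyword sets and 1 with the word chemocyanin, which was added after the data were seen. The depth limits aof-miR408a most, with 31 reads in the female library if a step is a read. No paired analysis was possible because each sex has 1 library.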

Other observations

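A stretch of aof-miR408b recurs in the rice hairpin matched by aof-miR528. The run UGCCUCUUCC, bases 6 to 15 of aof-miR408b, also stands at bases 74 to 83 of the rice hairpin matched by aof-miR528, in the arm opposite to the mature sequence. It has 10 bases. In the 81 other precursor sequences of the study's table that hold no miR408, the longest run shared with aof-miR408b had a median of 5 bases and reached 8 at most.

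The mature sequences pair with each other over the same stretch. This is not a separate observation, since the run lies in the hairpin arm opposite to mature aof-miR528. Bases 6 to 15 of aof-miR408b pair with bases 2 to 11 of aof-miR528 over 10 bases in a row, with 1 wobble. The longest such run between aof-miR408b and each of the 190 listed miRNAs outside the families had a median of 5 bases and reached 8 at most. The comparison was made after the sequences had been seen, and these counts describe the listed sequences. Whether the mature forms meet in the plant was not tested.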
